A study of Mus musculus with 30 samples.

Results

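The data are the transcript levels in mouse kidney after 1 day of angiotensin II, taken from 2 arrays of treated kidneys and 2 arrays of day 0 kidneys out of 30 arrays in the series and 8 of kidney. The arrays were chosen by their titles, which give the organ, the time and a biological replicate number, and the description covers genes of the tubule, of lipid and sterol metabolism and of stress. The day 1 mice were male C57BL/6, 8 to 10 weeks old, with an osmotic pump that delivered angiotensin II at 1500 ng per kg per minute in acidified saline for 1 day. The day 0 mice were of the same strain, sex and age and had no angiotensin II, and the labels do not say whether they carried a pump. The other 4 kidney arrays came from days 3 and 7 of the same infusion, with 2 at each time. The labels do not say whether replicates shared a cage, a day of surgery or a hybridization, so p-values measure only the spread between these arrays.

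Angiotensin II is the effector peptide of the renin-angiotensin system. It narrows vessels, raises aldosterone release and acts on the renal tubule through the type 1 receptor, where it raises sodium reabsorption. The proximal tubule makes up most of the kidney cortex: it takes back phosphate, glucose and amino acids, secretes organic anions and cations, and burns fatty acids in mitochondria and peroxisomes for its energy.

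Each array gave 1 intensity per probe set, with array medians of 35.2 to 36.0 in kidney. Of 18193 genes on the array, 14214 were tested in kidney, those above the 40th percentile of an array (intensities of 23.4 to 24.5) on at least 2 kidney arrays. Changes are given as day 1 minus day 0 on the log2(intensity + 16) scale, each with its standard error (SE) from a limma fit to all 8 kidney arrays. The added 16 understates changes of weak genes, and levels of different genes are not compared because probes differ in brightness. Kidney markers were present on every array: Umod, the loop of Henle glycoprotein, had 10512 and 10216 at day 1 and 10722 and 13017 at day 0, and Slc5a2, the proximal glucose transporter, had 2358 and 2097 at day 1 and 2678 and 2099 at day 0. Nphs1, the podocyte gene for nephrin, had 70.2 and 62.7 at day 1 and 55.7 and 59.2 at day 0.

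Transcripts of neighbouring tissues were also present, and unevenly so. Alb, the gene for liver albumin, had 82.3 and 12040 on the day 1 arrays of replicates 1 and 2, against 70.9 and 77.9 at day 0. Hpx, the gene for hemopexin and another liver marker, had 29.4 and 12841 at day 1 and 28.0 and 24.9 at day 0. Only day 1 replicate 2 stood apart for these genes among the 8 kidney arrays. Of 21 liver markers on the array, 19 lay at least 2-fold over their 8-array median there and 1 did so in day 1 replicate 1, and their summed intensity was 8779 and 93943 at day 1 and 10787 and 9197 at day 0. On replicate 1, Apoh had 529.6, against 225.3 and 144.8 at day 0, and Apoc3 had 1001, against 350.3 and 301.6. Over the 16 liver markers tested, the median on that array was 0.18 above the day 0 mean.

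Adipoq, the adipocyte gene for adiponectin, had 2318 and 3335 at day 1, against 110.1 and 102.3 at day 0, and 6176 on the array of day 3 replicate 2. Ucp1, the uncoupling protein of brown fat, had 1420 and 1026 at day 1 and 34.3 and 43.2 at day 0. Both day 1 arrays therefore lay above both day 0 arrays for these 2 fat genes, and the summed intensity of 16 adipocyte markers was 23429 and 27218 at day 1 and 4349 and 4544 at day 0. Cyp11a1, which starts steroid synthesis in the adrenal gland, had 16.3 and 15.9 at day 1 and 18.1 and 306.8 at day 0, so that day 0 replicate 2 stood apart. A gene was set aside as following such a list when its correlation with the list's mean over the 8 arrays was at least 0.9. This held for 285 tested genes: 110 followed the liver list, 108 the adipocyte list and 67 the adrenal list.

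**Figure D1:**
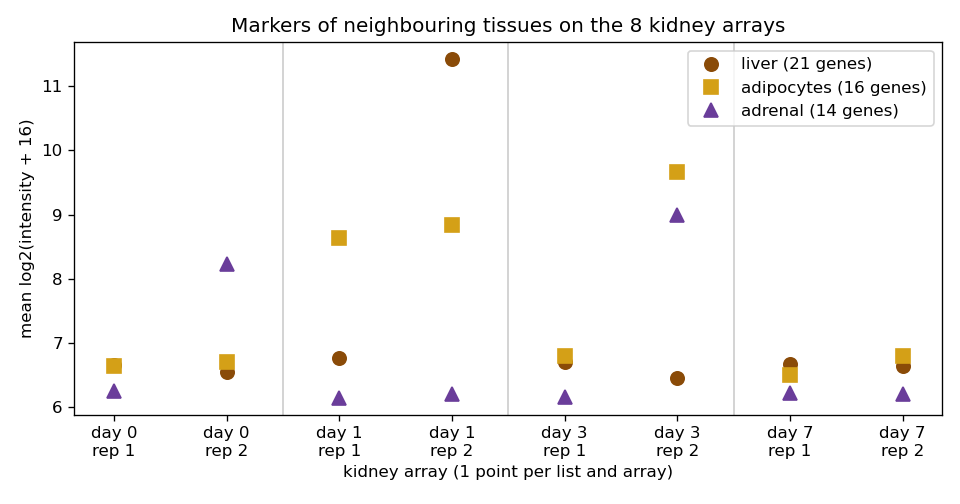
Mean log2(intensity + 16) of the liver, adipocyte and adrenal marker lists on each of the 8 kidney arrays, in order of day, with 1 point per list and array. The liver list is high on day 1 replicate 2 alone (11.42), the adipocyte list on both day 1 arrays (8.63 and 8.84) and on day 3 replicate 2, and the adrenal list on day 0 replicate 2 and day 3 replicate 2.

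Day 1 of angiotensin II was set against day 0 to ask which kidney transcripts differ early in the infusion. At an adjusted p under 0.05, 37 genes rose (0.260% of those tested) and 34 fell (0.239%). A change of 2-fold or more was seen for 16 of the rises and 11 of the falls. The rises were led by Cyp4a14, a fatty acid hydroxylase, by Cp, Bbox1, Apoe and Abca1, and by long non-coding RNAs, and the falls by the proximal tubule transporters Slc7a13 and Slc22a30, by the sterol synthesis genes Idi1 and Cyp51, and by the brush border protease Mep1b. None of these 71 genes followed a list of another tissue. Their highest correlation with the liver, adipocyte or adrenal list was 0.83, for Aldh1a7 and the adipocyte list. The liver list was high on day 1 replicate 2 alone, and the adipocyte list on day 3 replicate 2 but not on day 3 replicate 1. A gene that follows either list therefore spreads widely within a group and is unlikely to pass. The result thus does not show that the 71 genes are free of liver or fat RNA. The rule also misses some liver genes: Apoc3 correlated at 0.86 with the liver list.

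The count rested on few arrays: 2311 genes had an unadjusted p under 0.05, and an exact permutation test of 2 against 2 arrays cannot give a two-sided p below 0.333. In limma fits without day 0 replicate 1 no gene passed, with 1845 at an unadjusted p under 0.05, and 8 passed without the other day 0 array. Without day 1 replicate 1 the count was 147, of which 37 were among the 71 and 83 followed a list of another tissue. When day 1 replicate 2, the one with liver transcripts, was left out, 27 genes passed, of which 20 were among the 71 and 0 followed such a list. None of the 71 genes passed in all 4 of these fits. Their signs could not change there, because the day 1 and day 0 arrays of all 71 did not overlap. With the adipocyte list mean as a covariate 0 genes passed and 1685 had an unadjusted p under 0.05, and without the 3 arrays with liver or adrenal markers 139 genes passed, 29 of the 71 among them.

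**Figure D2:**
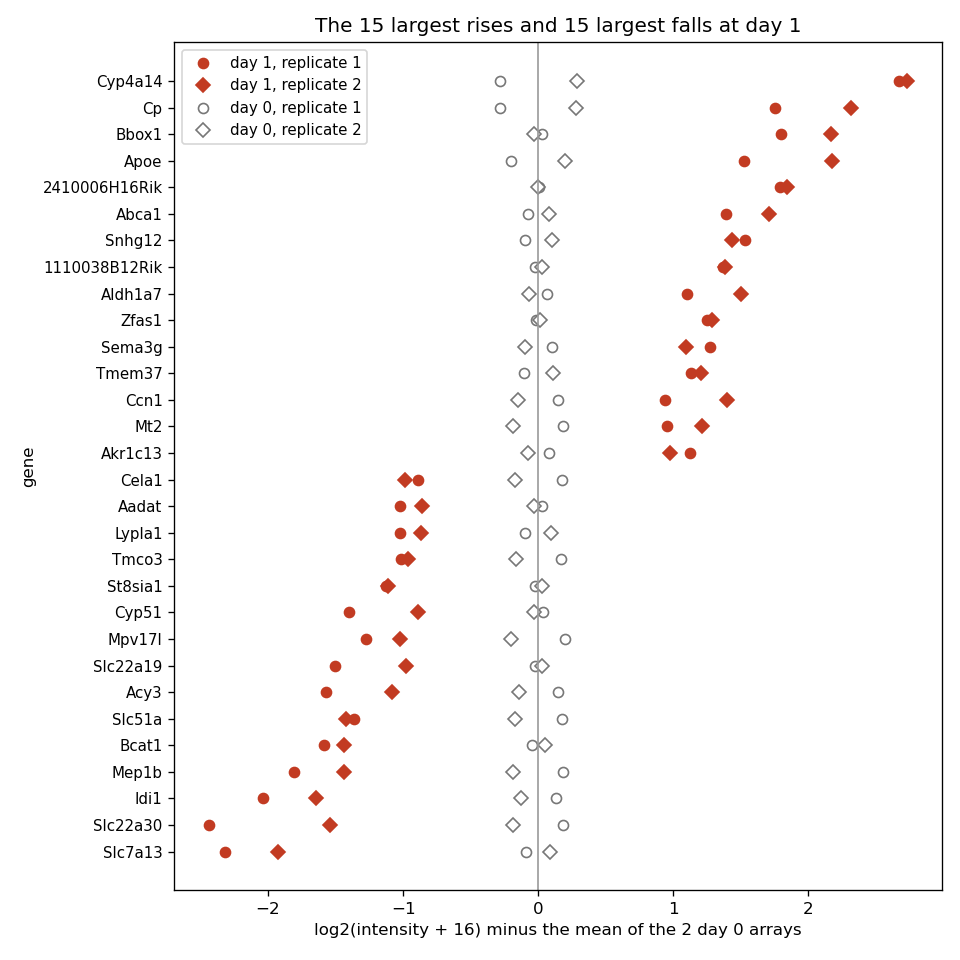
The 15 largest rises and 15 largest falls, as log2(intensity + 16) of each day 1 array (filled) and each day 0 array (open) minus the mean of the 2 day 0 arrays, with circles for replicate 1 and diamonds for replicate 2. The 30 genes were chosen among those whose day 1 and day 0 arrays do not overlap. The farthest are Cyp4a14, at 2.67 and 2.73, and Slc7a13, at -2.31 and -1.93.

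The transporters of the proximal tubule were lower where they changed. Slc7a13, an amino acid carrier for aspartate, glutamate and cystine in the last segment of the proximal tubule, had 1209 and 1586 at day 1, against 5722 and 6457 at day 0. Both day 1 arrays lay far below both day 0 arrays, 4.35-fold on average (-2.12 ± 0.15, SE, n = 2 each, adjusted p = 0.0098). Its other probe set was near background on all 8 arrays (8.1 to 12.6).

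Slc22a30, a member of the organic anion transporter family, had 299 and 570 at day 1 and 1921 and 1485 at day 0 (-1.99 ± 0.28, adjusted p = 0.048). Slc22a19, a sulfate conjugate carrier of the same family, had 203 and 299 at day 1 and 595 and 617 at day 0 (-1.24 ± 0.18, adjusted p = 0.048). The day 1 arrays were the lower ones for both genes, without overlap. Of 19 organic ion transporters tested, these 2 fell and none rose, 14 had both day 1 arrays below both day 0 arrays and 1 had both above, against 22.7% and 26.2% of all tested genes.

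The median difference of this list was -0.68, against 0.007 for all tested genes. Slc22a7, an organic anion carrier, had 146 and 344 at day 1 and 1247 and 957 at day 0, but its day 1 arrays differed too much for it to pass (-2.20 ± 0.47, adjusted p = 0.098). Abcc4, an apical efflux pump, was the 1 member with both day 1 arrays above, at 978 and 743 at day 1 and 425.3 and 424.5 at day 0 (0.98 ± 0.19, adjusted p = 0.089). Slc22a7 and Abcc4 are named here after their values were seen.

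Slc34a1, the sodium-phosphate cotransporter of the brush border, fell less: it had 3172 and 3475 at day 1, against 4974 and 5376 at day 0 (-0.64 ± 0.09, adjusted p = 0.048). Of 26 proximal tubule transport genes tested, Slc34a1 alone fell and none rose, and the median was -0.12. Both day 1 arrays were below both day 0 arrays for 13 and above for 5, against 22.7% and 26.2% of all tested genes. The phosphate and vitamin D list shares Slc34a1, which was the 1 call among its 14 tested genes. Bulk tissue cannot tell fewer cells of a type from less RNA per cell, and this holds for every tubule gene given here.

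Several enzymes of the proximal tubule fell as well. Acy3, an aminoacylase that removes acetyl groups from mercapturic acids, had 1967 and 2760 at day 1, against 6479 and 5307 at day 0 (-1.33 ± 0.17, adjusted p = 0.037). Mep1b, the beta subunit of the brush border protease meprin, had 650 and 841 at day 1 and 2628 and 2027 at day 0 (-1.62 ± 0.19, adjusted p = 0.03). For both enzymes the lower day 0 array was still well above the higher day 1 array.

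Slc51a, a subunit of the basolateral carrier of bile acids and steroids, had 74.0 and 70.6 at day 1 and 245.3 and 189.4 at day 0 (-1.39 ± 0.13, adjusted p = 0.014). Bcat1, the cytosolic aminotransferase of branched-chain amino acids, had 64.8 and 73.5 at day 1 and 218.7 and 234.5 at day 0 (-1.51 ± 0.16, adjusted p = 0.023). Its 2 other probe sets were weaker, at 28.4 to 64.8 over the 8 arrays, and had smaller differences, of -0.31 and -0.18. On the main probe sets of both genes, the day 1 arrays were below every other kidney array. Aadat, an aminotransferase of lysine and kynurenine breakdown, had 1230 and 1383 at day 1 and 2569 and 2469 at day 0 (-0.94 ± 0.09, adjusted p = 0.018).

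Of 21 proximal tubule enzymes in the list, Acy3 was the 1 that fell and none rose. On both day 1 arrays 10 genes were lower and 4 higher, against 22.7% and 26.2% of all tested genes. The remaining large falls were Mpv17l, a peroxisomal protein, at -1.15, St8sia1, which makes the ganglioside GD3, at -1.12, Tmco3 at -0.99, Lypla1, which removes fatty acids from proteins, at -0.95, and the elastase gene Cela1 at -0.94. Cela1 belongs to the pancreas and gut list, but that list spanned under 1 log2 unit over the 8 arrays.

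Genes known for higher expression in male than in female mouse kidney were mostly lower at day 1. Of 11 tested, 8 had both day 1 arrays below both day 0 arrays and none had both above, against 22.7% and 26.2% of all tested genes. The median was -1.10, but Slc22a30 alone passed. Cyp7b1, an oxysterol and steroid hydroxylase, had 1297 and 1930 at day 1, against 3508 and 3317 at day 0 (-1.10 ± 0.19, adjusted p = 0.067). Odc1, which makes putrescine from ornithine, had 1985 and 1965 at day 1 and 5098 and 3640 at day 0 (-1.12 ± 0.22, adjusted p = 0.087). Cyp7b1 and Odc1 are named after their values were seen.

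Beyond the proximal tubule few genes moved past the spread. None of 9 loop of Henle, 9 distal convoluted tubule, 17 collecting duct, 12 aldosterone-responsive or 10 podocyte genes passed limma's test, and 0, 4, 4, 2 and 1 of them had an unadjusted p under 0.05. Over all tested genes, 2311 of 14214 had an unadjusted p under 0.05. With 71 calls among all of these, most short lists hold none. Slc12a1, the sodium-potassium-chloride cotransporter of the loop, had 2122 and 1593 at day 1 and 2295 and 3299 at day 0 (-0.58 ± 0.27, adjusted p = 0.34). Its day 1 arrays were lower without overlap, but the arrays within each group were far apart.

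The renin-angiotensin genes gave no call by limma in 10 tested members, although 7 had an unadjusted p under 0.05, against 2311 of 14214 tested genes. Ace, which converts angiotensin I, had 107.7 and 169.7 at day 1 and 294.8 and 218.3 at day 0 (-0.83 ± 0.21, adjusted p = 0.13). Agtr1a, the type 1 receptor, had 435.6 and 478.5 at day 1 and 582.2 and 566.5 at day 0 (-0.32 ± 0.10, adjusted p = 0.21). Both genes were lower on both day 1 arrays without passing the threshold.

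Agt, the gene for angiotensinogen, had 322.4 and 473.6 at day 1 and 253.0 and 257.6 at day 0 (0.59 ± 0.18, adjusted p = 0.2). Its higher day 1 array was the one with liver transcripts, and its correlation with the liver list over the 8 arrays was 0.89. The part of liver RNA in this value was not tested. Agtr1b and Agtr2 lay below the filter, with at most 12.8 on the day 1 and day 0 arrays, and no probe set with Ren1 as its single symbol was used.

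Among lipid genes that passed, the largest change was in 1 fatty acid hydroxylase, Cyp4a14. Cyp4a12a, of the same family, belongs to the male-biased list, in which no gene had both day 1 arrays above both day 0 arrays. Cyp4a14, a microsomal omega-hydroxylase of fatty acids and a known target of the receptor PPAR-alpha, had 4801 and 4995 at day 1, against 603 and 905 at day 0. Both day 1 arrays were above every other kidney array, and the rise was 6.50-fold (2.70 ± 0.22, adjusted p = 0.01). Bbox1, which catalyses the last step of carnitine synthesis, had 443 and 580 at day 1 and 119 and 114 at day 0 (1.98 ± 0.16, adjusted p = 0.0098), and its weaker second probe set gave a difference of 1.19. The higher Bbox1 value stood on the array with liver transcripts, and on replicate 1 the gene was 1.79 above the day 0 mean. Over the 8 kidney arrays, Cyp4a14 and Bbox1 correlated at 0.53 and 0.75 with the liver list and at 0.54 and 0.52 with the adipocyte list, and the part of liver and fat RNA in their values was not tested.

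Of 35 fatty acid oxidation genes tested, Cyp4a14 was the 1 that rose and none fell. Both day 1 arrays were above both day 0 arrays for 22 of them and below for 5, and the median was 0.28. Without the 3 genes that followed a list of another tissue, 19 of 32 were above and 5 below, with a median of 0.27. Over all genes tested 26.2% were above and 22.7% below, and fat markers were higher on both day 1 arrays; their part in these counts was not tested. Eci1, a mitochondrial isomerase of unsaturated fatty acid oxidation, had 2974 and 2751 at day 1 and 1587 and 1319 at day 0 (0.98 ± 0.16, adjusted p = 0.059). Acot2, a mitochondrial thioesterase, had 2084 and 1664 at day 1 and 1123 and 1230 at day 0 (0.66 ± 0.12, adjusted p = 0.082), and Cpt1a, the entry step of long-chain fatty acids, had 3054 and 3050 at day 1 and 3094 and 2703 at day 0 (0.08 ± 0.14, adjusted p = 0.83). Eci1, Acot2 and Cpt1a are named after their values were seen.

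A pair of peroxisomal genes went the other way: Eci3, an enoyl-CoA isomerase, had 2015.4 and 2014.8 at day 1 and 4111 and 3431 at day 0 (-0.89 ± 0.11, adjusted p = 0.031), and Far1, which reduces fatty acids for ether lipids, fell by 0.85 (adjusted p = 0.03). Lipid droplet genes gave no call by limma in 25 tested (9 at an unadjusted p under 0.05, against 2311 of 14214 tested genes). Plin4 and Plin5, coats of lipid droplets, had differences of 2.28 and 0.99 but followed the adipocyte list and were set aside. Lpin1, a phosphatidate phosphatase, did not follow it and had 788 and 622 at day 1 and 501 and 406 at day 0 (0.62 ± 0.15, adjusted p = 0.13). Fatty acid synthesis genes gave no call by limma in 20 tested (7 at an unadjusted p under 0.05), with a median of 0.06.

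Idi1 and Cyp51 of sterol synthesis fell, and Apoe and Abca1 of cholesterol efflux rose. Idi1, the isomerase that activates the isoprene unit, had 275 and 366 at day 1, against 1289 and 1076 at day 0, or 3.58-fold lower (-1.84 ± 0.20, adjusted p = 0.024). Its other probe set gave 134 and 173 at day 1 and 646 and 550 at day 0, a difference of -1.86. Cyp51, the lanosterol demethylase, had 388 and 558 at day 1 and 1074 and 1024 at day 0 (-1.14 ± 0.16, adjusted p = 0.048), and its other probe sets gave -1.39 and -0.54. On the main probe sets of both genes, the day 1 arrays were below every other kidney array.

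In all, 2 of 24 cholesterol synthesis and uptake genes fell and none rose. Both day 1 arrays were below both day 0 arrays for 13 and above for 3, against 22.7% and 26.2% of all tested genes. Without the 2 genes that followed a list of another tissue, 12 of 22 were below and 3 above. The list's median was -0.18. Nsdhl, a sterol dehydrogenase after Cyp51 in the pathway, had 415 and 388 at day 1 and 685 and 640 at day 0 (-0.70 ± 0.11, adjusted p = 0.056). Sqle, the squalene epoxidase, had 368 and 401 at day 1 and 577 and 567 at day 0 (-0.56 ± 0.18, adjusted p = 0.21), and Fdft1, the squalene synthase, had 351 and 339 at day 1 and 249 and 314 at day 0 (0.29 ± 0.12, adjusted p = 0.31). Nsdhl, Sqle and Fdft1 are named after their values were seen. The day 1 and day 0 arrays of Nsdhl and Sqle did not overlap, and for Fdft1 the day 1 arrays were the higher ones.

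The 250 bases before the start of Idi1 (chr13:8885356-8885605, plus strand) and Cyp51 (chr5:4104698-4104947, minus strand) are shown because these genes of 1 pathway fell together. They are from RefSeq, build GRCm38.p6, 5′ to 3′ along the gene, and both genes matched by symbol. Capitals mark the CCAAT box (CCAAT on either strand) and a form of the sterol regulatory element (ATCACNNCA on either strand), and the motifs do not overlap.

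Idi1: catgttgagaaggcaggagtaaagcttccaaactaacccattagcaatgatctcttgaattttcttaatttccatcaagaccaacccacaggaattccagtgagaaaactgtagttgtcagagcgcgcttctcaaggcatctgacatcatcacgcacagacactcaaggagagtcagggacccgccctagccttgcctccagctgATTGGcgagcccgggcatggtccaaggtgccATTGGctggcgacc

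Cyp51: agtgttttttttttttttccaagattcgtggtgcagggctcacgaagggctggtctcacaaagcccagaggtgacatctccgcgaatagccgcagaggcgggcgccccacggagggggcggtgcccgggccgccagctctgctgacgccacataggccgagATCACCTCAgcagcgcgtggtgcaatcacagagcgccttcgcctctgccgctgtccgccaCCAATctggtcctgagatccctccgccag

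Idi1 held 2 CCAAT boxes, both on the reverse strand, and no match to the sterol element form. Cyp51 held 1 match to the sterol element form, 89 to 81 bases before the start, and 1 CCAAT box, 29 to 25 bases before it. Of 32851 promoters of this length in the table, 33.8% held a CCAAT box and 2.3% the sterol element form. These matches are descriptions of the letters only.

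On the efflux side, Apoe, the apolipoprotein that binds the LDL receptor family, had 3109 and 4893 at day 1, against 931 and 1231 at day 0 (1.85 ± 0.22, adjusted p = 0.03). Abca1, the pump that loads cholesterol onto apolipoproteins, had 695 and 871 at day 1 and 241 and 270 at day 0 (1.55 ± 0.20, adjusted p = 0.037). Both genes are targets of the sterol receptor LXR, and their day 1 arrays did not overlap with any other kidney array. Liver also expresses them, and the higher value of each was on day 1 replicate 2, the array with liver transcripts. On replicate 1, Apoe was 1.52 and Abca1 1.39 above the day 0 mean. Alb was at its day 0 level on that array, but the liver markers Apoh and Apoc3 were 1.47 and 1.58 above their day 0 means. The correlations of Apoe and Abca1 with the adipocyte list were 0.69 and 0.77. The part of liver and fat RNA in the values of Apoe and Abca1 was not tested.

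Of 17 efflux and LXR genes tested, Apoe and Abca1 rose and none fell, with a median of 0.12. Abcg1, a partner pump of Abca1 and another LXR target, had 225.2 and 274.7 at day 1 and 165.5 and 225.8 at day 0, so that its groups overlapped (0.34 ± 0.19, adjusted p = 0.42). Abcg1 is named after its values were seen.

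Among the stress genes that rose were the metallothioneins Mt2 and Mt1. Mt2, a metallothionein that binds zinc and copper, had 2174 and 2604 at day 1 and 1270 and 976 at day 0 (1.08 ± 0.16, adjusted p = 0.048). Mt1, its neighbour in the genome, had 5190 and 6258 at day 1 and 3513 and 3396 at day 0 (0.72 ± 0.11, adjusted p = 0.048), while its weaker probe set, at 43.9 to 61.3 over the 8 arrays, gave a difference of -0.002. Probe sets whose names end in s_at or x_at, as that of Mt1 used here, may bind transcripts of related genes. The higher value of each gene was on the array with liver transcripts, and on replicate 1 Mt2 was 0.96 and Mt1 0.59 above the day 0 mean. Over the 8 kidney arrays, Mt2 and Mt1 correlated at 0.67 and 0.65 with the liver list and at 0.67 and 0.74 with the adipocyte list. The part of liver and fat RNA in their values was not tested.

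The 250 bases before the start of Mt2 (chr8:94172368-94172617, plus strand) and Mt1 (chr8:94178839-94179088, plus strand), from the same source, are shown because these neighbouring genes rose together. Both lie on the same strand and are read in the same direction. Capitals mark the core of the metal response element (TGCACNC or TGCGCNC on either strand).

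Mt2: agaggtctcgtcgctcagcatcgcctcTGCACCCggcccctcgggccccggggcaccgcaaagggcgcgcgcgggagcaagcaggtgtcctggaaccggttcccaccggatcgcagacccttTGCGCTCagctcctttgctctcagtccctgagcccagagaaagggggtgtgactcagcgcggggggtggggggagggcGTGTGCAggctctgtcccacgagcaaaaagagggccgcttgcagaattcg

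Mt1: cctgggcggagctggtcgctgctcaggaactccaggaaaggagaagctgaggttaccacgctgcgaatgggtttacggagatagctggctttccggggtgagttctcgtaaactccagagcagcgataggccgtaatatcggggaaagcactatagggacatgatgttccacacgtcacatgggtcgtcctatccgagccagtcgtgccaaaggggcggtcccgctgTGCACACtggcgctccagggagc

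Within the bases shown, Mt2 held 3 such cores and Mt1 held 1, 23 to 17 bases before its start. The counts depend on the RefSeq start used and leave out cores beyond these bases. They therefore do not show which gene has more cores in its whole promoter, and they are descriptions of the letters only. The core was found in 21.4% of all promoters of this length.

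Of 24 glucocorticoid-responsive and metallothionein genes tested, these 2 rose and none fell. All 24 had a positive difference, against 7341 of 14214 tested genes, and the median was 0.68. Both day 1 arrays were above both day 0 arrays for 19, against 26.2% of all tested genes. Without the 1 gene that followed a list of another tissue, 19 of 23 were above, with a median of 0.64. Fat markers were higher on both day 1 arrays and liver markers on replicate 2. The part of liver and fat RNA in these counts was not tested. Cdkn1a, the cell cycle inhibitor p21, had 490 and 327 at day 1 and 215 and 149 at day 0 (1.09 ± 0.21, adjusted p = 0.083). Fkbp5, a chaperone of the glucocorticoid receptor, had 886 and 950 at day 1 and 642 and 581 at day 0 (0.58 ± 0.25, adjusted p = 0.31), and Fkbp5 is named after its values were seen.

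Immediate early genes gave 1 rise in 29 tested and no fall, with a median of 0.52. On both day 1 arrays 22 were higher and 2 lower, against 26.2% and 22.7% of all tested genes. The call was Ccn1, a matrix protein and target of YAP signalling, with 256 and 358 at day 1 and 142 and 112 at day 0 (1.17 ± 0.17, adjusted p = 0.048). Its probe set is an x_at one, and its 3 other, weaker probe sets gave differences of 0.18 to 0.65. Ccn1 also passed with trended and robust variances. It did not pass with no filter, added values of 1 or 64, quantile normalization or the mean of all probe sets. Nor did it pass with a replicate block, only the groups compared or the joint fit. Fos, a subunit of AP-1, had 160 and 125 at day 1 and 37.8 and 48.1 at day 0 (1.42 ± 0.36, adjusted p = 0.14), and Jun, its partner, had 309.9 and 308.3 at day 1 and 181.5 and 194.0 at day 0 (0.67 ± 0.11, adjusted p = 0.062). Fos and Jun are named after their values were seen.

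In the tubule injury list, Krt18, a keratin of simple epithelia, had 365 and 342 at day 1 and 190 and 202 at day 0 (0.80 ± 0.10, adjusted p = 0.038) and was the 1 rise in 25 tested, with none fallen. In this list 14 genes had both day 1 arrays above both day 0 arrays and 1 had both below, against 26.2% and 22.7% of all tested genes. Its median was 0.35. Without the 2 genes that followed a list of another tissue, 12 of 23 were above and 1 below, with a median of 0.33. The part of liver and fat RNA in these counts was not tested. Havcr1, which encodes the injury marker KIM-1, had 24.4 and 32.6 at day 1 and 36.3 and 38.8 at day 0 (-0.27 ± 0.14, adjusted p = 0.39), close to the filter. Havcr1 is named after its values were seen. Adamts1, a metalloprotease of the matrix list, had 371 and 360 at day 1 and 254 and 225 at day 0 (0.58 ± 0.08, adjusted p = 0.048). The related Adamts4 rose by 0.93 (adjusted p = 0.038).

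Other stress lists gave no call by limma: 0 of 20 heat shock genes (4 at an unadjusted p under 0.05), 0 of 25 endoplasmic reticulum stress genes (8), 0 of 20 oxidative stress genes (8), 0 of 14 p53 genes (5) and 0 of 17 hypoxia genes (8). Their medians were 0.02, 0.28, 0.25, 0.23 and 0.19 in that order. An unadjusted p under 0.05 was found for 2311 of all 14214 tested genes. Ddit3, the stress factor CHOP, had 456 and 273 at day 1 and 225 and 225 at day 0 (0.62 ± 0.21, adjusted p = 0.22). It is named after its values were seen, and its replicates at day 1 differed more than those at day 0.

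Acute phase genes were higher on both day 1 arrays and far higher on the one with liver transcripts. The list's median was 1.08 above the day 0 mean on replicate 1 and 4.21 on replicate 2, and 18 of 19 genes had both day 1 arrays above both day 0 arrays, against 26.2% of all genes tested. Without the 6 that followed a list of another tissue, 12 of 13 did, with medians of 1.18 and 4.10 on the same arrays. Cp, the copper-carrying ferroxidase ceruloplasmin, was the 1 rise, with 1376 and 2039 at day 1 and 325 and 486 at day 0 (2.03 ± 0.27, adjusted p = 0.043). All 7 of its other probe sets had a positive difference, of 0.07 to 2.29. On replicate 1 alone Cp was 1.75 above the day 0 mean.

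Fgg, the gamma chain of fibrinogen, had 616 and 2852 at day 1 and 95.1 and 100.3 at day 0 (3.57 ± 0.61, adjusted p = 0.062). Its value on day 1 replicate 1 was above all day 0, day 3 and day 7 arrays. On that array Alb was at its day 0 level, but the liver markers Apoh and Apoc3 were above both day 0 arrays. Lcn2, the gene for the lipocalin NGAL, had 289 and 2879 at day 1 and 56.5 and 84.0 at day 0 (3.46 ± 0.94, adjusted p = 0.16), so that replicate 1 lay below day 7 replicate 2, at 330. How much of these values is liver RNA was not tested. Lcn2 is named after its values were seen.

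**Figure D3:**
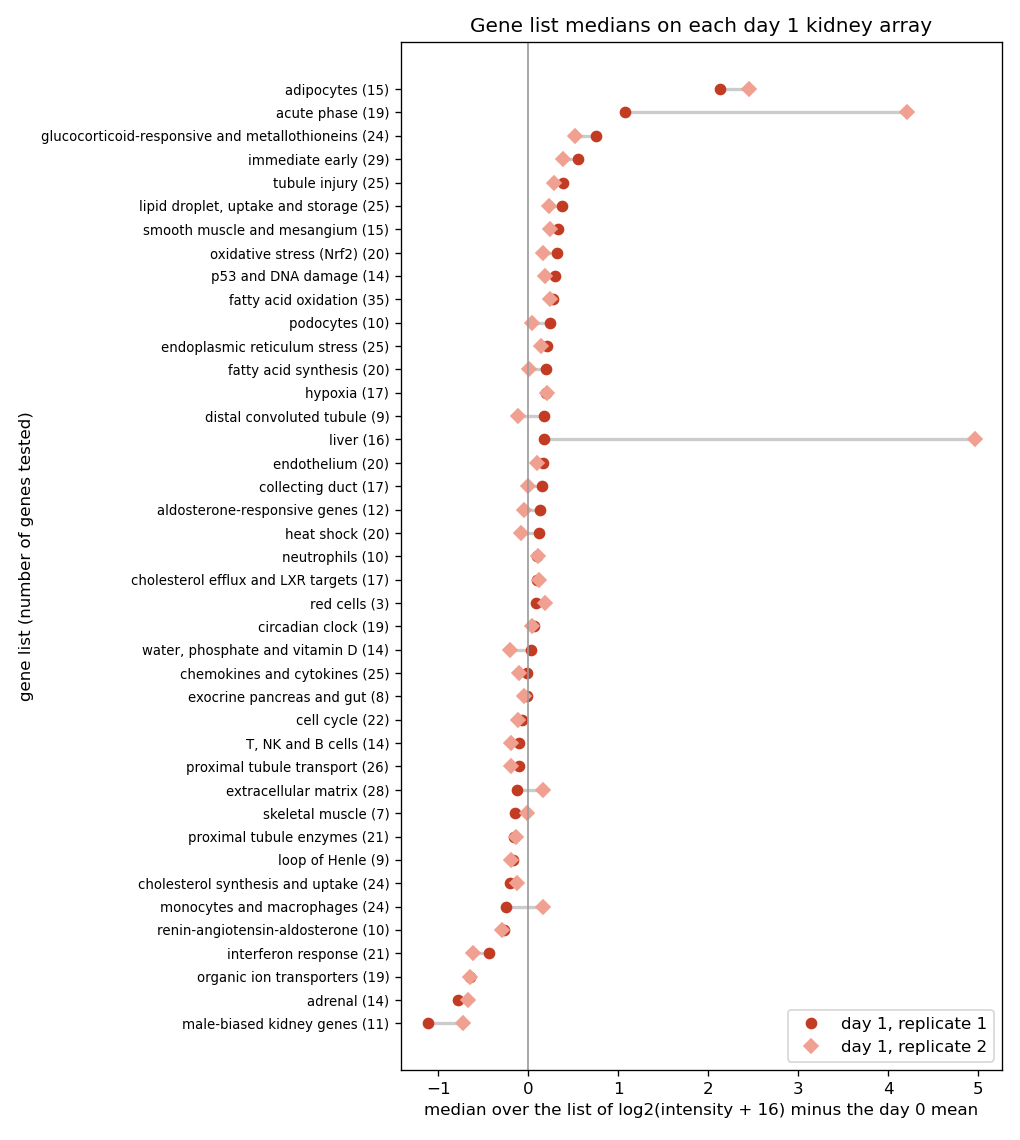
Median difference from the day 0 mean over the tested genes of each list, on the log2(intensity + 16) scale, for day 1 replicate 1 (circle) and replicate 2 (diamond), with the number of genes in brackets. The liver and acute phase lists differ between the replicates (1.08 and 4.21 for acute phase), while the organic ion transporter and male-biased lists are low on both.

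Immune lists gave no call by limma in 25 chemokine and cytokine genes (2 at an unadjusted p under 0.05), 10 neutrophil genes (2), 24 monocyte and macrophage genes (3) or 14 T, NK and B cell genes (1). The unadjusted p was under 0.05 for 2311 of all 14214 tested genes. S100a8, a calcium-binding protein of neutrophils, had 353 and 217 at day 1 and 37.4 and 61.2 at day 0 (2.19 ± 0.35, adjusted p = 0.059). Interferon response genes gave no call by limma in 21 tested (7 at an unadjusted p under 0.05), and the median was -0.58. Both day 1 arrays were below both day 0 arrays for 13 and above for none, against 22.7% and 26.2% of all tested genes. Samd9l, an interferon-induced gene outside the list, had 1165 and 1064 at day 1 and 2067 and 1830 at day 0 (-0.80 ± 0.10, adjusted p = 0.034), and Tnfsf10, the death ligand TRAIL, fell by 0.91 (adjusted p = 0.014). Both are named after their values were seen. Of the structural and other lists, Adamts1 was the 1 call in 28 matrix genes, and limma called 0 of 22 cell cycle genes (3 at an unadjusted p under 0.05), 0 of 20 endothelial genes (4), 0 of 15 smooth muscle and mesangial genes (4) and 0 of 19 clock genes (4).

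Long non-coding RNAs were among the rises with the smallest p. 2410006H16Rik, which RefSeq annotates as a long non-coding RNA on chromosome 11, had 1031 and 1074 at day 1, against 288 and 287 at day 0 (1.81 ± 0.10, adjusted p = 0.0041), the smallest p of the comparison. 1110038B12Rik, a long non-coding RNA on chromosome 17, had 1010 and 1021 at day 1 and 374 and 389 at day 0 (1.37 ± 0.11, adjusted p = 0.0098). For both transcripts the replicates of a day differed far less than the days.

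Snhg12, Zfas1 and Gas5 are hosts of small nucleolar RNAs, which guide the modification of ribosomal RNA. Snhg12 had 521 and 485 at day 1 and 157 and 183 at day 0 (1.48 ± 0.12, adjusted p = 0.0098), and Zfas1 had 794 and 816 at day 1 and 321 and 329 at day 0 (1.27 ± 0.11, adjusted p = 0.01). Gas5 had 2332 and 2285 at day 1 and 1134 and 1176 at day 0 (0.99 ± 0.08, adjusted p = 0.0098). Of 14 tested hosts with such names, a group put together after its values were seen, 6 rose, none fell, and the median was 0.77. Both day 1 arrays were above both day 0 arrays for 12, against 26.2% of all tested genes. Npm1, a nucleolar protein of ribosome assembly, rose by 0.66 (adjusted p = 0.048).

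The remaining large rises were in genes of other roles. Aldh1a7, an aldehyde dehydrogenase, had 995 and 1315 at day 1 and 478 and 434 at day 0 (1.30 ± 0.19, adjusted p = 0.048), with 1109 on day 3 replicate 2, which carried fat markers. Sema3g, a secreted semaphorin, rose by 1.18, Tmem37 by 1.17 and Akr1c13, an aldo-keto reductase, by 1.05. For Sema3g the day 7 replicate 1 array, at 529, lay above both day 1 arrays, at 509 and 447.

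The day 1 arrays were also set against the later treated kidneys of days 3 and 7, which shows where day 1 differs without the day 0 arrays. The comparison shares the day 1 arrays with the one above. Of 14214 genes, 8 were higher at day 1 (0.0563%) and 1 was lower (0.00704%), with 1704 at an unadjusted p under 0.05. The higher ones were 2410006H16Rik, Bbox1, Snhg12, 1110038B12Rik, Zfas1, Akr1c13, Gas5 and Taf1d, and the lower one was Slc7a13. Without day 1 replicate 2 no gene passed limma's test (1078 at an unadjusted p under 0.05), without day 7 replicate 1 or 2 it was 1 or 3 genes, without day 1 replicate 1 116, and without day 3 replicate 1 or 2 19 or 32.

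Bbox1 had 443 and 580 at day 1, 149 and 120 at day 3 and 132 and 163 at day 7 (1.75 on the log2 scale against the later days, adjusted p = 0.017). Slc7a13 had 1209 and 1586 at day 1, 3625 and 3953 at day 3 and 4285 and 5109 at day 7 (-1.59, adjusted p = 0.017). Neither gene's later arrays overlapped with its day 1 arrays. 2410006H16Rik had 380 and 361 at day 3 and 347 and 417 at day 7, against which its day 1 values were higher by 1.45 (adjusted p = 0.0073).

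Other genes stayed between. Cyp4a14 had 2666 and 1805 at day 3 and 1974 and 1872 at day 7, lower than at day 1 and above day 0, and its difference between day 1 and the later days was 1.25 (adjusted p = 0.13). Idi1 had 627 and 854 at day 3 and 858 and 696 at day 7, again between day 0 and day 1 (-1.20 against the later days, adjusted p = 0.11). Among the 71 genes that changed at day 1, 62 had both day 1 arrays beyond all 6 other kidney arrays. All 71 had a smaller difference from day 0 at day 7 than at day 1 and 69 a smaller one at day 3, and in 58 all 4 later arrays lay on the same side of both day 0 arrays as at day 1. The genes were chosen for their day 1 difference from the same day 0 arrays, so these counts are a description.

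**Figure D4:**
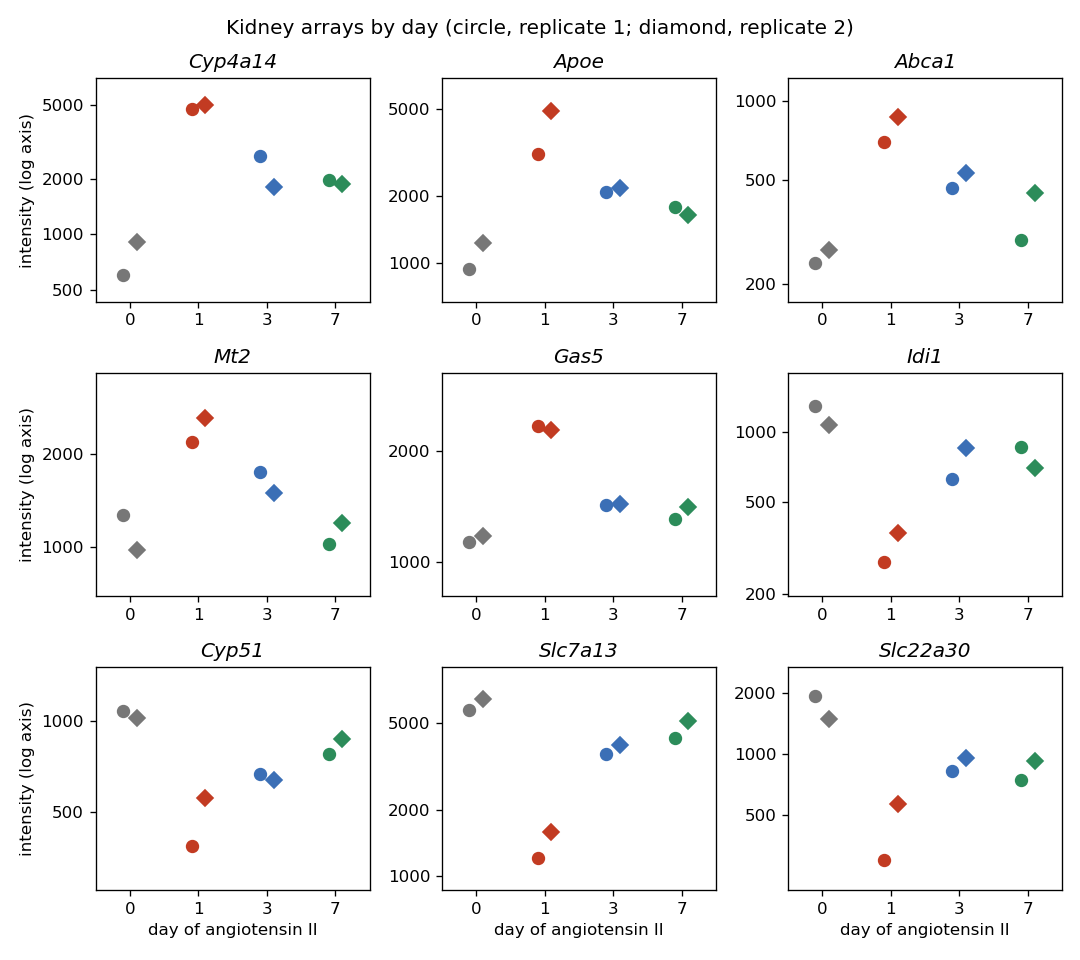
Intensity (log axis) of 9 genes on each kidney array against the day of angiotensin II, with a circle for replicate 1 and a diamond for replicate 2. Mt2 (1025 and 1192 at day 7) is within its day 0 values at day 7, while Gas5 (1309 and 1408 at day 7), Cyp4a14 (1974 and 1872 at day 7) and Slc22a30 (747 and 924 at day 7) lie between the day 1 and day 0 values.

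The day 1 response of kidney was last set against that of heart, whose 3 day 1 and 3 day 0 arrays came from the same experiment. The difference of the responses itself was tested in a limma fit of kidney, heart and brain arrays. It passed for 369 genes with a more positive response in kidney (2.51% of 14715) and 141 with a more negative one (0.958%), with 2715 genes at an unadjusted p under 0.05. Of these 510 genes, 4 followed the liver list and 21 the adipocyte list. Leaving out 1 array at a time changed the count to between 139, without kidney day 0 replicate 2, and 1699, without heart day 1 replicate 3.

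The 71 kidney genes were chosen for their change on the same kidney arrays, so their difference from heart in part restates that change and is given as a description. Of the 71, 11 did not pass the filter on low values in heart, which leaves little room for a fall there. Cyp4a14 was near background in heart, with 10.3 to 10.7 at day 1 and 10.7 to 12.4 at day 0, and the responses differed by 2.74 (adjusted p = 3.3e-07). Apoe had 1950, 2301 and 2109 in heart at day 1 and 2884, 2491 and 2965 at day 0, lower where kidney was higher, and the difference of responses was 2.24 (adjusted p = 0.0012). Bcat1 had 46.4, 50.9 and 15 in heart at day 1 and 14.3, 14.2 and 14.1 at day 0 (-2.26 for kidney minus heart, adjusted p = 0.014).

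Some kidney genes moved the same way in heart. Mt2 had 7003, 6289 and 3224 in heart at day 1 and 1310, 1489 and 2321 at day 0, a rise of 1.65 (adjusted p = 9.3e-04). Ccn1 had 843, 1667 and 621 in heart at day 1 and 252, 322 and 262 at day 0, a rise of 1.73 (adjusted p = 4.5e-04). For neither did the difference of responses pass (-0.56 ± 0.44 and -0.57 ± 0.42 for kidney minus heart, adjusted p = 0.55 and 0.52).

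**Figure D5:**
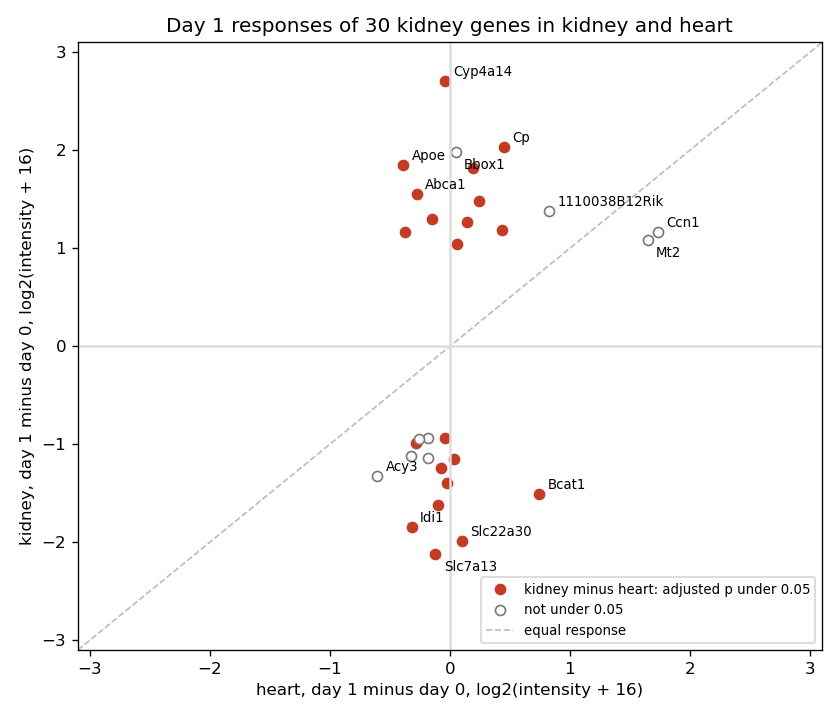
Day 1 minus day 0 difference in kidney (vertical axis) and heart (horizontal axis) on the log2(intensity + 16) scale for the 30 genes with the largest kidney changes, filled where the difference of responses passed. Most lie near 0 in heart, Ccn1 and Mt2 are higher in both organs (1.73 and 1.65 in heart), and Bcat1 (0.75 in heart) is lower in kidney.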

How the data were processed

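Total RNA of kidney was measured on Affymetrix mouse genome arrays. The authors deposited 1 intensity per probe set and array, on a linear scale. Per the submitters' processing notes, Affymetrix Expression Console was used; the algorithm and its settings are not stated there. Array medians of 35.2 to 36.0 show a common scale, so the values were not normalized again. Of 45101 probe sets, 64 were controls, 34945 had a single gene symbol in the platform annotation, 932 had several and 9160 had none. Those with a single symbol were used, and the brightest over all arrays stood for each of 18193 genes (9010 had several). Of these probe sets, 34741 matched RefSeq by Entrez identifier and 0 symbols changed.

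Values were analysed as log2(intensity + 16). Group means were fitted in limma 3.58.1 (R 4.3.3), with moderated tests and Benjamini-Hochberg adjustment over all tested genes at a threshold of 0.05. The main fit used all 8 kidney arrays (4 residual degrees of freedom), and the comparison with heart used 26 arrays of kidney, heart and brain in 11 groups. The number of arrays limits the precision.

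The members, the 41 lists (812 genes, 688 tested) and the tests were chosen with earlier results of these data known. The rule named the 15 largest rises and 15 largest falls that passed with groups apart, up to 4 list members that passed or up to 2 with the smallest p, the angiotensin genes, Alb, Hpx and Adipoq, and the 5 largest differences each way for the other comparisons. The text names fewer list members and says where a gene was chosen after its values were seen, except for Umod, Slc5a2, Nphs1, Ucp1 and Cyp11a1, given as markers, and other genes of the 71. A gene was set aside when it correlated at 0.9 or more with a list of another tissue whose mean spanned at least 1 log2 unit.

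Alternatives were no filter, added values of 1 and 64, a second quantile normalization, gene means over all probe sets, trended and robust variances, a replicate block, only the groups compared, the joint fit and leaving out each array. Leaving out the arrays with markers of other tissues and an adipocyte covariate were added after the data were seen. The code was tested on simulated data. Promoters came from RefSeq (GRCm38.p6). Files were read in R through data.table, version 1.17.8. Figures used matplotlib 3.10.9 with pandas 2.3.3 under Python 3.11.15 (numpy 2.4.6).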

Additional observations from a re-analysis of the deposited data

Results flagged for a closer look

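The test of kidney against heart was passed by 510 genes, and those among them that were named by rule are given here. All values are the kidney response at day 1 minus the heart response on the log2 scale.

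Among genes with a more positive response in kidney, Adipoq (5.12, adjusted p = 0.043), Ucp1 (4.68, adjusted p = 0.05), Cidea (4.33, adjusted p = 0.045) and Thrsp (3.63, adjusted p = 0.035) are adipocyte markers, whose levels on the kidney arrays move with the adipocyte list. Fgg differed by 3.62 (adjusted p = 0.0036), and its higher kidney value stands on the array with liver transcripts. Fgg, Cyp4a14, Akr1c13 and Aldh1a7 were near background in heart on every day 1 and day 0 array. The kidney rises gave 2.74 for Cyp4a14, 2.24 for Apoe, 1.83 for Abca1 and 1.58 for Cp, which serve lipid, sterol and copper handling. Tmem37 gave 1.54, Aldh1a7 1.45, Akr1c13 0.99 and Sema3g 0.74. The non-coding RNAs gave 1.62 for 2410006H16Rik, 1.24 for Snhg12 and 1.13 for Zfas1.

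Among genes with a more negative response in kidney, Myh7 (-3.62), Nmrk2 (-3.56) and Ankrd2 (-3.37) are genes of striated muscle stress, Timp1 (-3.18) encodes a protease inhibitor and Chil3 (-4.20) a macrophage lectin. Myh7 had 6897, 7441 and 7270 in heart at day 1, against 353, 540 and 578 at day 0. The kidney falls gave -2.26 for Bcat1, -2.09 for Slc22a30, -2.00 for Slc7a13, -1.52 for Idi1, -1.52 for Mep1b, -1.37 for Slc51a and -1.17 for Slc22a19. In heart, Slc22a30, Mep1b, Slc51a and Slc22a19 were near background, at 6.7 to 24.6 over day 1 and day 0, so no fall could have been seen there. Mpv17l gave -1.19, Aadat -0.90 and Tmco3 -0.71. Slc7a13, at 23.6 to 39.9 in heart, and Aadat, at 20.4 to 26.7, were close to the filter there, which leaves little room for a fall.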

How the results depend on the processing

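The count of 71 genes at day 1 against day 0 was 64 to 97 with an added value of 64, quantile normalization, the mean of all probe sets, trended variances or only the groups compared. With only the groups compared, 31 of the 67 were among the 71 and 24 followed a list of another tissue; the other 4 settings kept 48 to 71 of the 71. It was 20 with no filter, 31 with an added value of 1, 143 with robust variances and 238 in the joint fit of kidney, heart and brain. Leaving out 1 array gave 0 to 147 genes. Without the 3 arrays with liver or adrenal markers it was 139 (29 of the 71), without the day 3 array with adrenal and fat markers 130 (66 of the 71), and with the adipocyte list mean as a covariate 0 (1685 at an unadjusted p under 0.05). All 71 genes kept their sign in the 17 settings tried, but for many settings this was fixed in advance. The filter and variance settings leave a difference unchanged, and leaving out 1 array cannot change the sign of groups that do not overlap. With the replicate number as a block 21 genes passed, all among the 71. The labels give no shared batch, and deviations of same-numbered day 0 and day 1 arrays correlated at -0.09, against 0.07 to 0.24 for the other 5 pairs of days.

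Against later days, 9 genes became 17 with robust variances, 69 in the joint fit, 0 by limma with only the groups compared (1695 at an unadjusted p under 0.05), 6 with the replicate block and 0 to 116 with 1 array left out. For kidney minus heart, 510 became 214 with only the groups compared, 421 with the replicate block and 139 to 1699 with 1 array left out. The 127 named genes gave 2159 values under the alternatives: 1549 stayed on their side of the threshold, 573 lost it, 36 gained it, and Slc4a1 changed sign, to 0.11 (adjusted p = 0.81) without the 3 arrays.

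Where leaving out an array left a group with 1, its spread was taken to be that of the other groups. With 2 arrays a group, small changes were not detectable, and the day 1 difference in fat markers and the day of treatment cannot be told apart from these 4 arrays. The causes of the changes in count were not tested.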
